A study of Mus musculus with 9 samples.

Results

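The genes described here are 39 antiviral effectors of the interferon response, chosen by name with earlier results of these data known. Counts of them beside the share of all features are therefore description and do not test the list. The genes encode proteins that bind, cut, edit or trap viral nucleic acids and particles, and factors that amplify this state. Of the 39 listed genes, 36 could be tested among 11406 features. They were read on Illumina mouse BeadChips in macrophages grown from bone marrow of C57Bl/6 mice with 15% L929-conditioned medium. Cells received TRAF-STOP 6877002, TRAF-STOP 6860766 or vehicle for 1 h and then, in each of the 3 groups alike, FGK45, an antibody that activates CD40, for 8 h at 25 ug/ml, with 3 arrays per group. TRAF-STOPs are small molecules made to interrupt signalling from the costimulatory receptor CD40 through the adaptor TRAF6. The concentration of either compound is not in the labels, and every group was stimulated, so a change is one relative to CD40-activated vehicle cells and not to resting cells. Each group is given as 3 mice, numbered 1 to 3, but it is not stated that a number means the same animal in different groups.

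As background, type I interferons bind the IFNAR receptor on the cell that made them and on its neighbours. The receptor's kinases TYK2 and JAK1 activate transcription factors, among them STAT2, which works with IRF9 at a DNA element, the interferon-stimulated response element, in front of these effector genes. Macrophages make interferon when pattern recognition receptors sense nucleic acids or bacterial products, and many of them also hold a basal interferon tone.

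Each of the 36 tested genes had signal over background (detection p under 0.05) on 9 of 9 arrays, so none entered through 1 group alone. The probes for Ifit1, an inhibitor of viral translation, and Xaf1, an interferon-induced promoter of apoptosis, were detected on 0 of 9 arrays. Ifi44 had no probe under this symbol in the annotation and enters only the promoter search below. Values are log2 signals, and a difference is the first group's mean minus the second's with its standard error (SE, n = 3 arrays per group). Levels of different genes are not compared, because each probe has its own brightness. Since the RNA came from whole cultures, fewer expressing cells and less RNA per cell cannot be told apart.

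The element named above was looked for in RefSeq promoter sequences (build GRCm38.p6). The search covered 250 bases before and 50 bases after each gene start, and 30 of the 39 genes had an entry. Its core, written GAAANNGAAA or, on the other strand, TTTCNNTTTC, was present for 11 of the 30 genes (36.7%), against 1079 of all 27025 genes with an entry (3.99%). Of the 27 tested genes with an entry, 10 held it. The core TTCNNNGAA, the palindromic core of the gamma-activated sequence, was present for 9 of the 30 (30.0%), against 2582 of 27025 (9.55%), and it overlapped the first core in Bst2 and Ifitm3. The genes were chosen by name as interferon effectors. A share above that of all genes, for either core, therefore does not bear on the shifts described below. The 250 bases before the gene start are shown, 5′ to 3′ on the gene's strand, for Ifit3, Rsad2, Oas1a and Phf11a, whose levels differed between the compounds, and for Bst2, which holds the core and passed in no comparison. Capitals mark the response element core.
Ifit3, chr19:34583279-34583528, + strand: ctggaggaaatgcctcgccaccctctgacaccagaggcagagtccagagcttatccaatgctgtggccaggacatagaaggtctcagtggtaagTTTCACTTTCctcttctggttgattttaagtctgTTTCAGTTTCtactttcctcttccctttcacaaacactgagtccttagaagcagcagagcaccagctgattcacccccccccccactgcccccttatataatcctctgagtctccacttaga
Rsad2, chr12:26456453-26456702, - strand: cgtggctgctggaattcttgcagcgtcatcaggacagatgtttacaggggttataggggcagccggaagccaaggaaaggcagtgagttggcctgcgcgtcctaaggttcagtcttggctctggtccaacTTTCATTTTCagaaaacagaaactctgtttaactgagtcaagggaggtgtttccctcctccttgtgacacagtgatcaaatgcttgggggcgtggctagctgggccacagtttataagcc
Oas1a, chr5:120907526-120907775, - strand: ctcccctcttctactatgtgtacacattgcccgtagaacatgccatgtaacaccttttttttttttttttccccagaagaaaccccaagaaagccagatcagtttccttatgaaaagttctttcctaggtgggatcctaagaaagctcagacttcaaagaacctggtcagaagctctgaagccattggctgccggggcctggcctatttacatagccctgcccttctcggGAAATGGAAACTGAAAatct
Phf11a, chr14:59297523-59297772, - strand: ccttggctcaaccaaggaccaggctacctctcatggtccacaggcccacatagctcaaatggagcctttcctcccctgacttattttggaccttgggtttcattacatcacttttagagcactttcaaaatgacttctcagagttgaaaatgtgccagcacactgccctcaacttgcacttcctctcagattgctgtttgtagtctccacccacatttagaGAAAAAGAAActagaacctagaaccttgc
Bst2, chr8:71537473-71537722, - strand: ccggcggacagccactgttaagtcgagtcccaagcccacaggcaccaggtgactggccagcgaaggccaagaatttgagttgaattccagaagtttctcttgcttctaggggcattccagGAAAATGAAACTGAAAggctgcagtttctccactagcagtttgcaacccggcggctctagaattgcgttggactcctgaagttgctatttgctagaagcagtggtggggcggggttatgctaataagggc

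The cores in these promoters began 156 and 122 bases before the start of Ifit3, 120 before that of Rsad2, 20 and 14 before that of Oas1a, 29 before that of Phf11a, and 130 and 124 before that of Bst2. Of 17 cores found, 13 lay wholly before a gene start. Of the 9 genes that differed by over 1 log2 unit between the compounds, Ifit1bl1 and Phf11a hold the core. Cmpk2, Isg20, Oasl1, Ifit2 and Slfn1 hold no such letters in this window, and Mx1 and Mx2 had no entry. The map of the cores along the promoters gives each position.

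**Figure D1:**
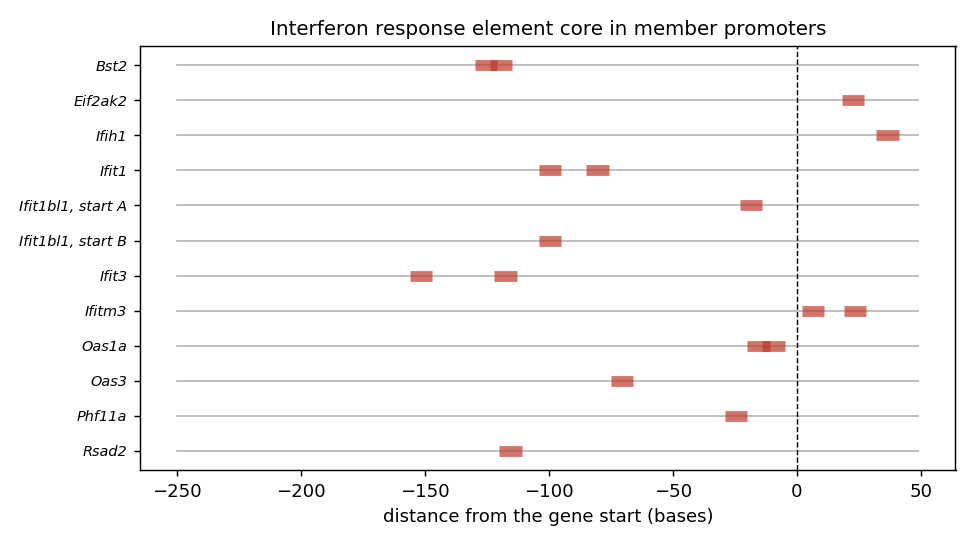
Position of the interferon-stimulated response element core (red bars) in the 12 promoters of 11 listed genes that hold it; the x axis is the distance in bases from the gene start (dashed line), and each grey line is the 300-base window searched. Most bars lie before the start, while those of Eif2ak2, Ifih1 and Ifitm3 lie after it.

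The arrays showed a shared shift of the effector genes. Measured against the mean of the vehicle arrays, the median over the 36 genes was 0.32, 0.31 and 0.27 on the 6877002 arrays, -0.47, -0.39 and -0.29 on the 6860766 arrays and -0.05, 0.05 and 0.0050 on the vehicle arrays. The 3 sets of arrays did not overlap, while the same median over all features stayed between -0.013 and 0.013 on every array. On single 6877002 arrays 36, 33 and 32 of the 36 genes lay above the vehicle mean, against 1, 0 and 4 on the 6860766 arrays. On the vehicle arrays, which make up that mean, 10, 25 and 19 did, so these genes also moved together within the vehicle group.

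**Figure D2:**
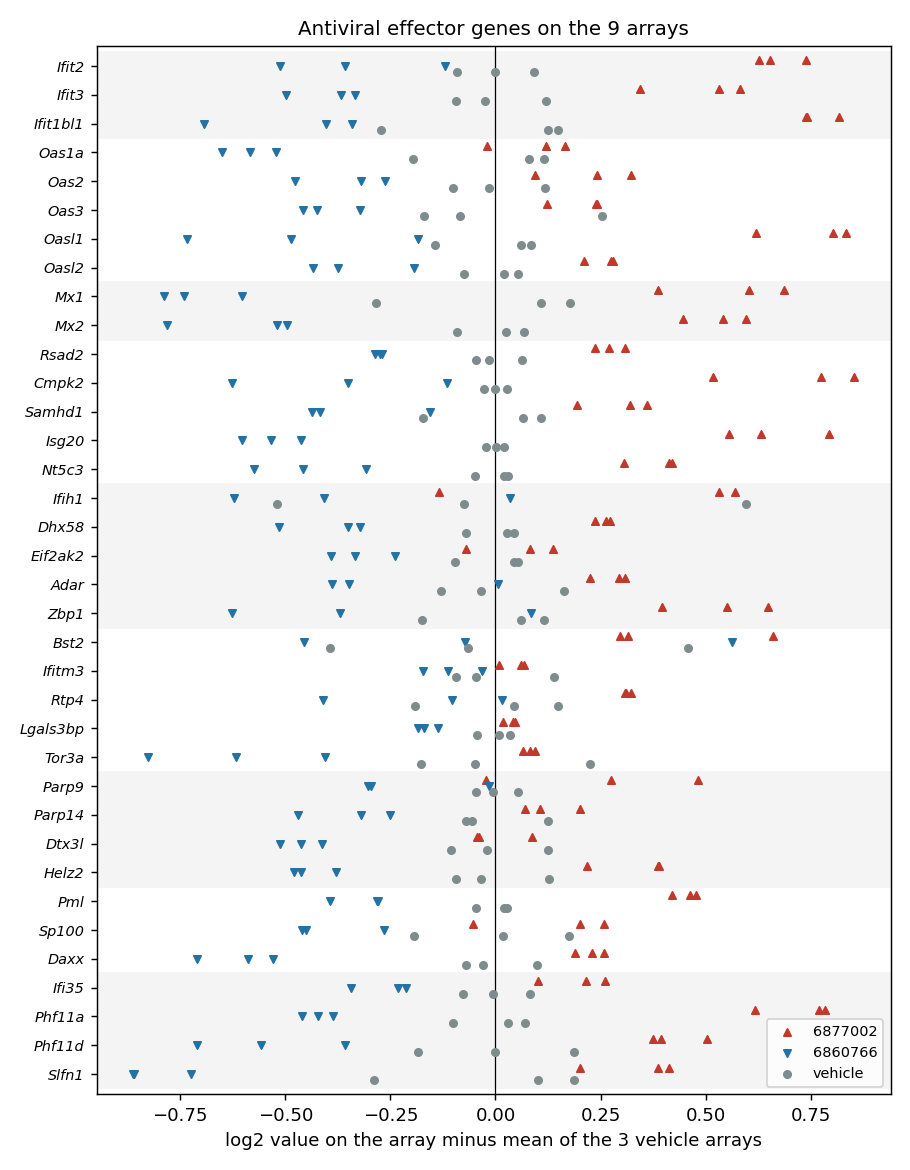
Log2 value of each tested gene on each of the 9 arrays minus the mean of the 3 vehicle arrays (x axis, log2 units), for 6877002 (red), 6860766 (blue) and vehicle (grey); shading separates the role groups. For most genes the red points lie right of the grey ones and the blue points left of them, while Bst2, Ifih1, Ifitm3 and Lgals3bp show little or mixed separation.

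With 6877002, 16 of the 36 effector genes rose relative to vehicle, 0 fell and 20 did not pass, where the share of all features called higher was 1.92% and called lower 1.07% (2.99% in either direction). The calls are those of limma's moderated test with Benjamini-Hochberg adjustment over 11406 features. The rises ran from 0.26 (Oasl2, 1.19-fold) to 0.77 (Ifit1bl1, 1.70-fold) on the log2 scale. The median difference over the 36 genes was 0.30, against -0.0079 over all features. The ranges of the groups did not overlap for 23 of the 36, each higher, where 11.1% of all features were so. The count was 10 without vehicle replicate 1 (1.82% of all features called in either direction) and 10 without 6877002 replicate 1 (1.51%).

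With 6860766, 25 of the 36 fell relative to vehicle, 0 rose and 11 did not pass, where 1.79% of all features were called lower and 1.09% higher (2.88% in either direction). The falls ran from -0.28 (Rsad2) to -0.82 (Slfn1), and the median over the 36 genes was -0.38, against 0.010 over all features. The 6860766 arrays lay wholly below the vehicle arrays for 28 of the 36, where 7.44% of all features did so. The count was 15 without vehicle replicate 2 (1.51% of all features called in either direction). These comparisons use the same vehicle arrays, so their values are given side by side and are not independent.

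Set directly against each other, 6877002 left 31 of the 36 genes higher than 6860766 and 0 lower, where 3.32% of all features were called higher and 1.19% lower (4.52% in either direction). The differences that passed ran from 0.37 (Eif2ak2) to 1.27 (Mx1), which is 1.29-fold to 2.41-fold, and 9 exceeded 1 log2 unit. The median over the 36 was 0.66, against -0.020 over all features. Ranges of the compounds did not overlap for 33 of the 36, where 9.19% of all features were higher without overlap. Because the concentrations are not known, this compares the treatments as given and not equal doses. With 3 arrays on each side, the lowest p an exact permutation test of 1 gene allows is 0.1, and the calls therefore draw on the spread that limma pools across features.

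**Figure D3:**
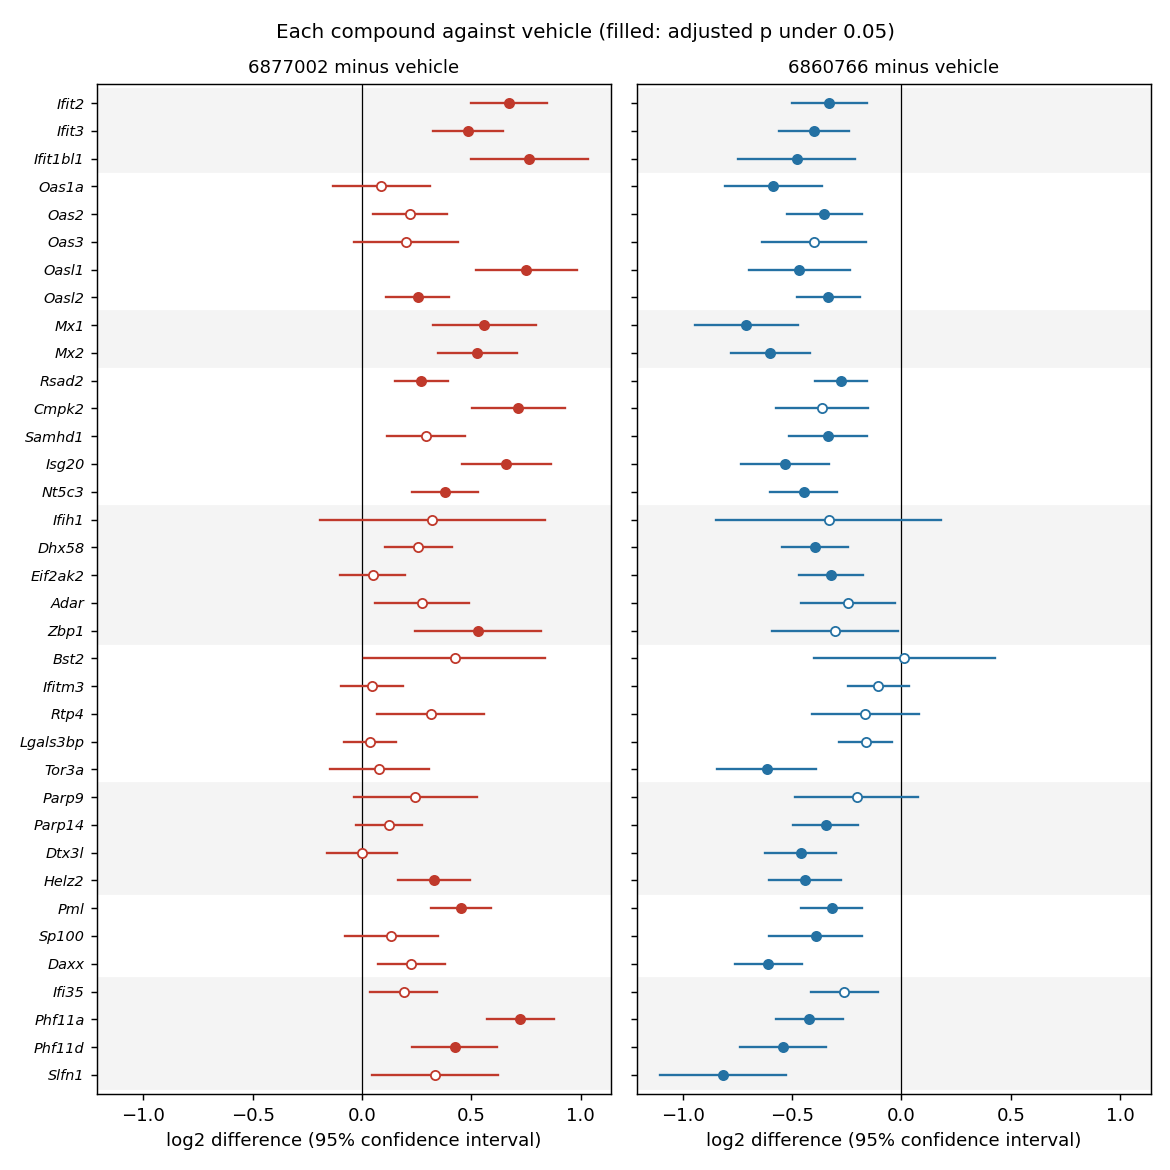
Log2 difference of each compound from vehicle for the 36 genes (left 6877002, right 6860766; bars are 95% confidence intervals from limma, n = 3 arrays per group; filled points passed at an adjusted p under 0.05). The 16 filled points on the left are all above 0 and the 25 on the right all below 0.

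Transcripts of the IFIT family, whose proteins bind viral RNA and stop its translation, rose with 6877002 and fell with 6860766 for 3 of 3 tested genes. Ifit2 stood at 13.12, 13.04 and 13.01 with 6877002, at 11.87, 12.02 and 12.26 with 6860766 and at 12.29, 12.47 and 12.38 with vehicle. No value of a compound reached into the vehicle range. Ifit2 rose by 0.67 ± 0.08 with 6877002 (adjusted p = 5.29e-05) and changed by -0.33 ± 0.08 with 6860766 (adjusted p = 0.0335). The call for 6860766 held in 4 of 9 fits with 1 array left out. The other probe for Ifit2 gave 0.64 and -0.35, of which the -0.35 did not pass. Ifit3, which works in a complex with other IFIT proteins, had 12.79, 12.56 and 12.74 with 6877002, 11.71, 11.88 and 11.85 with 6860766 and 12.12, 12.33 and 12.19 with vehicle. Its differences from vehicle were 0.49 ± 0.08 (adjusted p = 0.000671) and -0.40 ± 0.08 (adjusted p = 0.0046), again with no overlap. The other probe for Ifit3 gave 0.73 and -0.58. Ifit1bl1, an Ifit1-like gene, had 7.78, 7.78 and 7.86 with 6877002, 6.35, 6.70 and 6.64 with 6860766 and 6.77, 7.19 and 7.17 with vehicle. It rose by 0.77 ± 0.13 with 6877002 (adjusted p = 0.00129). Its fall of 0.48 with 6860766 (SE 0.13, adjusted p = 0.0473) did not pass with slide as a block (-0.31). It held in 2 of 9 fits with 1 array left out.

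Among the OAS family, Oas1a, Oas2 and Oas3 encode synthetases whose short oligoadenylates switch on the RNA-cutting enzyme RNase L, and Oasl1 and Oasl2 encode OAS-like proteins. Oasl1, which in mice restrains translation of the interferon regulator Irf7, had 10.11, 10.14 and 9.92 with 6877002, 8.57, 8.82 and 9.12 with 6860766 and 9.16, 9.39 and 9.36 with vehicle. It rose by 0.75 ± 0.11 with 6877002 (adjusted p = 0.000354) and changed by -0.47 ± 0.11 with 6860766 (adjusted p = 0.0237). Its other 2 probes gave 0.84 and 0.32 with 6877002, of which the 0.32 did not pass, and -0.48 and -0.67 with 6860766. Oas1a had 7.76, 7.62 and 7.81 with 6877002, 6.99, 7.06 and 7.12 with 6860766 and 7.72, 7.76 and 7.45 with vehicle. Only the 6860766 arrays of Oas1a stood apart. Its difference from vehicle was -0.59 ± 0.11 with 6860766 (adjusted p = 0.00333) and 0.09 with 6877002 (95% confidence interval -0.13 to 0.31, adjusted p = 0.739). Oas2 gave 0.22 ± 0.08 with 6877002, which did not pass, and -0.35 ± 0.08 with 6860766, which did (adjusted p = 0.0199). Oas3 passed against vehicle with neither compound (0.20 ± 0.11 and -0.40 ± 0.11). Oasl2 rose by 0.26 ± 0.07 with 6877002, at an adjusted p of 0.0493 that lay at the threshold and was lost with slide as a block (0.17), and changed by -0.33 ± 0.07 with 6860766 (adjusted p = 0.00864). Between the compounds each of the 5 genes passed, with differences of 0.57 (Oas2) to 1.22 (Oasl1).

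The Mx genes encode dynamin-like GTPases that block influenza and other viruses in wild mice. In C57BL/6 mice they do not give a working protein, and RefSeq lists both Mx1 and Mx2 as transcribed pseudogenes, so here they report transcription only. Mx1 had 9.23, 9.15 and 8.93 with 6877002, 7.76, 7.94 and 7.81 with 6860766 and 8.26, 8.72 and 8.66 with vehicle. Mx2 had 9.72, 9.77 and 9.62 with 6877002, 8.40, 8.68 and 8.66 with 6860766 and 9.09, 9.24 and 9.20 with vehicle. Neither gene's groups overlapped. Mx1 rose by 0.56 ± 0.11 with 6877002 (adjusted p = 0.0071) and changed by -0.71 ± 0.11 with 6860766 (adjusted p = 0.00114). Mx2 rose by 0.53 ± 0.09 (adjusted p = 0.00115) and changed by -0.60 ± 0.09 (adjusted p = 0.00046). Between the compounds Mx1 differed by 1.27 ± 0.11, the widest gap among the 36, and Mx2 by 1.13 ± 0.09.

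Of 5 genes for enzymes that act on nucleotides and nucleic acids, 4 rose with 6877002 and 4 fell with 6860766. Cmpk2, a mitochondrial kinase that makes CTP, had 13.11, 13.03 and 12.78 with 6877002, 11.63, 11.91 and 12.14 with 6860766 and 12.29, 12.26 and 12.23 with vehicle. It rose by 0.72 ± 0.10 with 6877002 (adjusted p = 0.000268), while its difference of -0.36 ± 0.10 with 6860766 missed the threshold (adjusted p = 0.0617) although the ranges did not overlap. Rsad2 encodes viperin, which turns CTP into a terminator of viral RNA synthesis, and is the genomic neighbour of Cmpk2. Rsad2 had 14.24, 14.17 and 14.20 with 6877002, 13.66, 13.65 and 13.66 with 6860766 and 13.92, 14.00 and 13.89 with vehicle. The arrays of each group lay close together and the groups did not overlap. Its changes were 0.27 ± 0.06 (adjusted p = 0.0103) and -0.28 ± 0.06 (adjusted p = 0.00936). Its values stood close to 14.39, the highest on the deposited scale, which leaves little room above them.

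Isg20, an RNA exonuclease, had 8.38, 8.21 and 8.14 with 6877002, 7.05, 6.98 and 7.12 with 6860766 and 7.60, 7.56 and 7.58 with vehicle. It rose by 0.66 ± 0.10 with 6877002 (adjusted p = 0.000349) and changed by -0.53 ± 0.10 with 6860766 (adjusted p = 0.00318). Nt5c3, a pyrimidine nucleotidase, rose by 0.38 ± 0.07 (adjusted p = 0.00456) and changed by -0.45 ± 0.07 (adjusted p = 0.0013). Samhd1, which depletes the nucleotides that reverse transcription needs, gave 0.29 ± 0.08 with 6877002, which did not pass. With 6860766 it gave -0.34 ± 0.08 (adjusted p = 0.036), where the ranges overlapped. That call held in 3 of 9 fits with 1 array left out. The 5 genes of this group passed between the compounds, with differences of 0.55 (Rsad2) to 1.19 (Isg20).

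Of 5 genes for proteins that sense or edit double-stranded and Z-form RNA, 1 rose with 6877002 and 2 fell with 6860766. Zbp1, a Z-nucleic acid sensor that can start necroptosis, had 8.65, 8.75 and 8.49 with 6877002, 7.47, 7.73 and 8.18 with 6860766 and 8.16, 7.92 and 8.21 with vehicle. It rose by 0.53 ± 0.14 with 6877002 (adjusted p = 0.0388), a call lost with slide as a block (0.15), and its other 2 probes gave -0.03 and 0.05. With 6860766 its difference was -0.30 ± 0.14, which did not pass. Dhx58, which encodes the RIG-I-like helicase LGP2, had 9.95, 9.99 and 9.98 with 6877002, 9.37, 9.39 and 9.20 with 6860766 and 9.76, 9.74 and 9.65 with vehicle. Dhx58 fell with 6860766 (-0.40 ± 0.07, adjusted p = 0.00376) and gave 0.26 ± 0.07 with 6877002, which did not pass. Eif2ak2, the kinase PKR that halts translation, changed by -0.32 ± 0.07 with 6860766 (adjusted p = 0.0135), or by -0.25 with slide as a block, which did not pass. With 6877002 it stood 0.05 above vehicle (95% confidence interval -0.10 to 0.20). Adar, which edits double-stranded RNA and so hides it from these sensors, passed against vehicle with neither compound but was 0.52 ± 0.10 higher with 6877002 than with 6860766 (adjusted p = 0.00345). Another Adar probe, detected on 9 of 9 arrays, did pass for 6877002 against vehicle (0.42). The remaining Adar probes gave 0.26, 0.08 and 0.27 there and did not pass. Ifih1, the sensor MDA5, had 6.06, 6.10 and 5.40 with 6877002, 5.12, 4.91 and 5.57 with 6860766 and 5.01, 5.46 and 6.13 with vehicle. Its arrays overlapped in all 3 comparisons and it passed in none of them. The pooled standard deviation of Ifih1 between arrays of a group was 0.441, the widest of the 36, where the median of the 36 was 0.115.

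Of 5 effector genes acting at membranes and outside the cell, 0 passed with 6877002 in limma (2 at an unadjusted p under 0.05) and 1 fell with 6860766. Bst2, or tetherin, which ties budding virions to the cell surface, had 11.70, 11.34 and 11.36 with 6877002, 10.59, 10.97 and 11.61 with 6860766 and 11.50, 10.65 and 10.98 with vehicle. The arrays of a group were spread widely (pooled standard deviation 0.405), and Bst2 passed in no comparison, with 0.42 for 6877002 against vehicle (95% confidence interval 0.01 to 0.84) and 0.01 for 6860766 against vehicle (-0.40 to 0.43). Ifitm3, which stops viruses fusing with endosomes, had 13.94, 14.00 and 13.99 with 6877002, 13.81, 13.90 and 13.76 with 6860766 and 14.07, 13.88 and 13.84 with vehicle. Ifitm3 is another probe near the top of the scale, and its differences from vehicle were 0.05 (95% confidence interval -0.09 to 0.19) and -0.11 (-0.25 to 0.03). The secreted glycoprotein Lgals3bp gave 0.04 (-0.08 to 0.16) and -0.16 (-0.28 to -0.04), neither of which passed. Tor3a, a torsin ATPase, had 9.03, 9.06 and 9.04 with 6877002, 8.13, 8.34 and 8.56 with 6860766 and 8.78, 9.19 and 8.91 with vehicle. Tor3a was the 1 gene of this group to change against vehicle, by -0.62 ± 0.11 with 6860766 (adjusted p = 0.00249). With 6877002 it stood 0.08 above vehicle (-0.15 to 0.31). Rtp4, a chaperone of membrane receptors, passed between the compounds (0.48 ± 0.12, adjusted p = 0.02) but did not with slide as a block (0.41), and passed against vehicle with neither.

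The ubiquitin ligase Dtx3l and its ADP-ribosyltransferase partner Parp9 lie next to each other in the genome, with Parp14 beside Dtx3l. Dtx3l had 9.86, 9.73 and 9.73 with 6877002, 9.31, 9.36 and 9.26 with 6860766 and 9.75, 9.89 and 9.66 with vehicle. The 6877002 and vehicle arrays of Dtx3l overlapped (difference 0.00, 95% confidence interval -0.16 to 0.16), whereas it changed by -0.46 ± 0.08 with 6860766 (adjusted p = 0.00163). Parp14, a mono-ADP-ribosyltransferase, changed by -0.35 ± 0.07 with 6860766 (adjusted p = 0.00919) and gave 0.13 ± 0.07 with 6877002, which did not pass. Its dimmer probes gave 0.49 and 0.05 with 6877002. Parp9 passed in no comparison, with 0.45 ± 0.13 between the compounds (adjusted p = 0.0676). Helz2, a helicase and nuclear coactivator, rose by 0.33 ± 0.08 with 6877002 (adjusted p = 0.0246), a call lost with slide as a block (0.19), and changed by -0.44 ± 0.08 with 6860766 (adjusted p = 0.0031).

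PML, SP100 and DAXX build the nuclear bodies that silence incoming viral genomes. Pml, the scaffold, had 10.54, 10.55 and 10.49 with 6877002, 9.68, 9.79 and 9.79 with 6860766 and 10.02, 10.09 and 10.10 with vehicle. Its groups were tight and did not overlap, with a rise of 0.45 ± 0.07 (adjusted p = 0.000354) and a change of -0.32 ± 0.07 (adjusted p = 0.00968). Daxx, a histone chaperone, had 10.23, 10.30 and 10.27 with 6877002, 9.46, 9.33 and 9.52 with 6860766 and 10.01, 10.14 and 9.97 with vehicle. It had the lowest adjusted p of the 36 for 6860766 against vehicle (-0.61 ± 0.07, adjusted p = 6.47e-05), while 0.23 ± 0.07 with 6877002 did not pass. Sp100 changed by -0.39 ± 0.10 with 6860766 (adjusted p = 0.0429) and gave 0.13 ± 0.10 with 6877002, which did not pass. The Sp100 call for 6860766 held in 3 of 9 fits with 1 array left out.

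The remaining genes have less settled roles. Phf11a, a PHD finger gene, had 10.60, 10.59 and 10.44 with 6877002, 9.36, 9.40 and 9.43 with 6860766 and 9.72, 9.85 and 9.89 with vehicle. It had the lowest adjusted p of the 36 for 6877002 against vehicle (0.72 ± 0.07, adjusted p = 6.71e-06) and for 6877002 against 6860766 (1.15 ± 0.07, adjusted p = 1.57e-08), and changed by -0.42 ± 0.07 with 6860766 (adjusted p = 0.00236). Its paralogue Phf11d rose by 0.42 ± 0.09 (adjusted p = 0.014) and changed by -0.54 ± 0.09 (adjusted p = 0.00224). The deposited files used here pair probes with symbols but hold no probe sequences, so signal shared between such paralogues was not checked. Slfn1, a Schlafen gene that slows T cell growth, had 6.73, 6.92 and 6.94 with 6877002, 5.67, 5.67 and 5.81 with 6860766 and 6.72, 6.24 and 6.63 with vehicle. It showed the deepest fall of the 36 with 6860766 (-0.82 ± 0.14, adjusted p = 0.00191) and gave 0.33 ± 0.14 with 6877002, which did not pass. Ifi35, a partner of the interferon-induced protein NMI, passed against vehicle with neither compound and differed by 0.45 ± 0.07 between them (adjusted p = 0.000525).

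**Figure D4:**
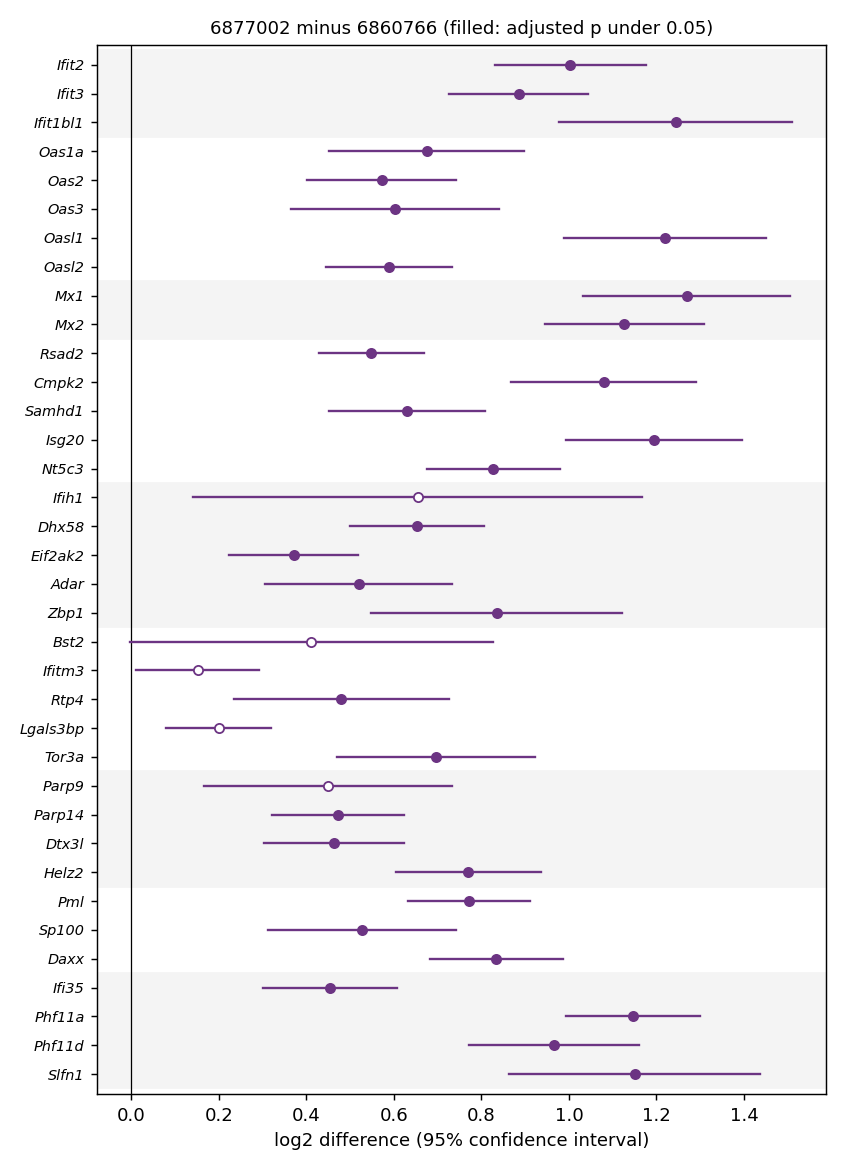
Log2 difference 6877002 minus 6860766 for the 36 genes (bars are 95% confidence intervals from limma, n = 3 arrays per group; filled points passed at an adjusted p under 0.05). The 31 filled points lie between 0.37 and 1.27, and the 5 open ones are Ifih1, Bst2, Ifitm3, Lgals3bp and Parp9.

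Several genes passed against vehicle with 1 compound and not with the other. To test whether the rise with 6877002 and the fall with 6860766 differed in size, the mean of the 2 compounds was set against vehicle in the same fit, a contrast chosen after the values were seen. Of the 36 genes 0 passed in limma (2.14% of all features did), 7 had an unadjusted p under 0.05, and the lowest adjusted p was 0.0867, for Dtx3l. The count was 1 without 6860766 replicate 3. Leaving out that array also raised the calls over all features, to 5.7% for 6877002 and 4.13% for 6860766 against vehicle. The share for the mean of the compounds is not given there. A difference in size between rise and fall was therefore not shown for any of the 36 with all 9 arrays, nor was equality.

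Of the 36 genes, 15 had more than 1 detected probe, 63 probes in all. For 6877002 against 6860766, 46 of the 63 probes were higher and 0 lower when each was tested on its own, and 62 had a positive difference. Of all 16415 probes, 493 were higher and 156 lower in that fit (3.95% called). Whether a gene passed depended on the probe for 6 of the 15 genes with 6877002 against vehicle (Adar, Oasl1, Parp14, Pml, Samhd1 and Zbp1). It did so for 8 with 6860766 against vehicle (Dhx58, Dtx3l, Ifit2, Oasl2, Parp14, Pml, Samhd1 and Sp100). Between the compounds it did so for 9 (Adar, Dhx58, Dtx3l, Oasl2, Parp14, Pml, Samhd1, Sp100 and Zbp1). Probes of 1 gene differed in sign for Dhx58, Dtx3l, Pml and Zbp1 with 6877002 against vehicle, for Parp9 with 6860766 against vehicle and for Pml between the compounds. Adjacent genes of the list, with no other protein-coding gene between them, were Ifit2 with Ifit3 and Ifit3 with Ifit1bl1, Oasl2 with Oasl1, Oas2 with Oas3, Rsad2 with Cmpk2, and Dtx3l with Parp14 and with Parp9.

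The arrays lay on 4 slides: 6877002 on slides 3 and 4, 6860766 on slides 1 and 3, and vehicle on slides 1, 2 and 4. With slide as a block, which leaves vehicle replicate 2 without weight because it lay alone on slide 2, the median over the 36 genes was 0.18 for 6877002 against vehicle, -0.37 for 6860766 against vehicle and 0.62 between the compounds. In these comparisons 14, 25 and 31 of the 36 genes passed with the block, where 2.01%, 2.72% and 4.03% of all features did. Genes that passed with this block but not in the fit without it were Dhx58 with 6877002 (0.36), Cmpk2 (-0.48) and Zbp1 (-0.46) with 6860766, and Ifitm3 between the compounds (0.26). On slide 4, with 1 array of each, 33 of the 36 genes were higher with 6877002 than with vehicle (median 0.28, while 49.1% of all features were higher). On slide 1, with 2 arrays of 6860766 and 1 of vehicle, 35 of 36 were lower (median -0.34, with 52.2% of all features higher). On slide 3, with 2 arrays of 6877002 and 1 of 6860766, 35 of 36 were higher (median 0.62, with 45.4% of all features higher).

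**Figure D5:**
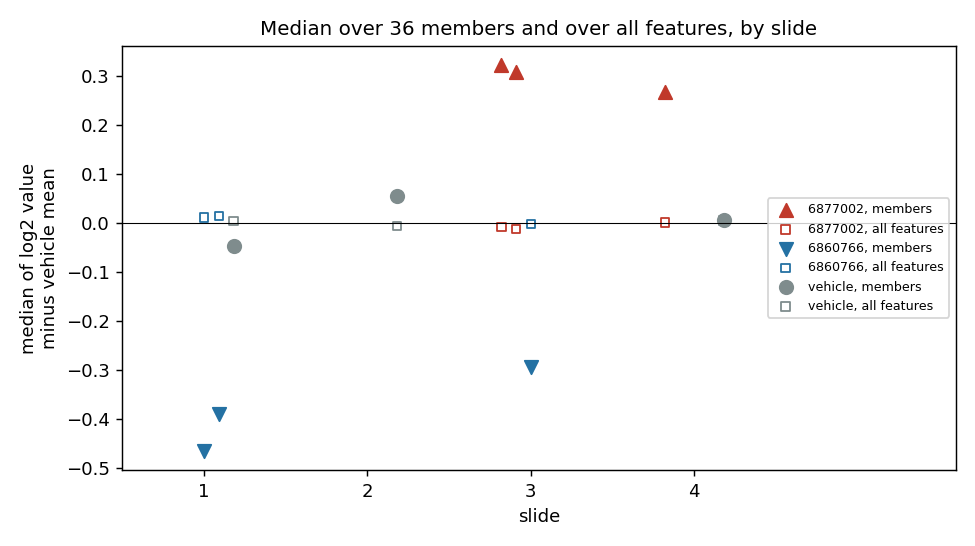
Median over the 36 genes (large symbols) and over all features (open squares) of the log2 value minus the vehicle mean, for each array placed by its slide (x axis). The 6877002 arrays sit at 0.27 to 0.32, the 6860766 arrays at -0.47 to -0.29 and the vehicle arrays at -0.05 to 0.05, also where groups share a slide, while the squares stay near 0.

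Other genes of the interferon pathway were taken from lists. These hold genes upstream of the effectors, and also feedback and ISG15 genes and interferon-inducible GTPases, which are not upstream. Of 48 tested, 7 rose and 0 fell with 6877002 (1.92% of all features rose). With 6860766, 12 fell and 0 rose (1.79% of all features fell), and 21 were higher and 0 lower with 6877002 than with 6860766 (3.32% of all features were higher). Of these 7, 12 and 21 genes, the feedback and ISG15 group held 2, 4 and 4, and the GTPases 2, 3 and 7. Among 3 interferon ligand genes detected, Ifnb1, the first type I interferon made by macrophages, had 5.40, 5.51 and 5.37 with 6877002, 4.64, 4.95 and 4.76 with 6860766 and 4.86, 5.08 and 4.72 with vehicle. Its signal was over background on 3 of 3 arrays with 6877002, 1 of 3 with 6860766 and 1 of 3 with vehicle, so it entered the test through the 6877002 arrays, which lay above the rest, and no difference is given. It is 1 of the 21 genes counted as higher with 6877002 than with 6860766. Ifna1 and Ifnab passed in no comparison.

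Of 7 receptor and kinase genes, 0 passed against vehicle with either compound (limma; 2 had an unadjusted p under 0.05 with each), while Ifnar2, the high-affinity chain of the interferon receptor (0.37 ± 0.10, adjusted p = 0.0339), and Jak2 (0.38 ± 0.08, adjusted p = 0.00497) were higher with 6877002 than with 6860766. The probe for Ifnar1 did not pass the detection filter. Of 8 transcription factor genes, Irf7, the interferon-induced amplifier of interferon genes, had 9.63, 9.63 and 9.53 with 6877002, 8.52, 8.51 and 8.74 with 6860766 and 9.15, 9.10 and 9.31 with vehicle. Irf7 rose by 0.41 ± 0.08 (adjusted p = 0.00897) and changed by -0.60 ± 0.08 (adjusted p = 0.000382). Stat2 changed by -0.45 ± 0.09 with 6860766 (adjusted p = 0.0063) and gave 0.29 ± 0.09 with 6877002, which did not pass. Irf9, the DNA-binding partner of STAT2, passed in no comparison (0.04 ± 0.07 and -0.09 ± 0.07 against vehicle). Irf1 rose with 6877002 (0.49 ± 0.07, adjusted p = 0.00014) and stood 0.04 ± 0.07 from vehicle with 6860766. Irf8 rose with 6877002 (0.37 ± 0.10, adjusted p = 0.0475), and Irf2 fell with 6860766 (-0.26 ± 0.06, adjusted p = 0.0311).

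Of 12 sensor, adaptor and kinase genes that lead to interferon, 0 passed with 6877002 in limma (2 at an unadjusted p under 0.05). With 6860766 Ddx58, the sensor RIG-I (-0.47 ± 0.12, adjusted p = 0.0427), and the adaptor Myd88 (-0.25 ± 0.06, adjusted p = 0.0306) fell. Between the compounds Ddx58 (0.63 ± 0.12) and Tlr7 (0.33 ± 0.08) were higher with 6877002. Traf6, the adaptor the compounds are named for, stood -0.06 ± 0.07 from vehicle with 6877002 and -0.01 ± 0.07 with 6860766, and did not pass. In the feedback and ISG15 group of 9, Isg15 (0.46 ± 0.09) and its activating enzyme Uba7 (0.28 ± 0.06) rose with 6877002. With 6860766 Isg15 (-0.37 ± 0.09), Uba7 (-0.23 ± 0.06), the ISG15 protease Usp18 (-0.61 ± 0.07) and the kinase inhibitor Socs1 (-0.82 ± 0.14) fell. The 9 interferon-inducible GTPases belong to a class of which some members attack the vacuoles of intracellular microbes. Of these 9, Gm4951 (1.06 ± 0.13) and Igtp (0.30 ± 0.07) rose with 6877002. Igtp (-0.71 ± 0.07), Irgm2 (-0.57 ± 0.08) and Gm4951 (-0.56 ± 0.13) fell with 6860766. The median over the 9 was 0.26 and -0.30, beside 0.30 and -0.38 for the 36 effectors.

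The cells carried macrophage markers: the 7 of 10 listed that were tested, among them Csf1r, Adgre1 and Lyz2, were detected on 9 of 9 arrays. The mean log2 level over their probes was 10.80 to 10.85 with 6877002, 10.53 to 10.68 with 6860766 and 10.63 to 10.75 with vehicle. Within this list Mertk rose with 6877002 (0.50 ± 0.11, adjusted p = 0.0168), and Fcgr1, an Fc receptor that interferons induce, rose with 6877002 (0.40 ± 0.10, adjusted p = 0.03) and fell with 6860766 (-0.55 ± 0.10, adjusted p = 0.00263), while the other 5 passed in no comparison. Markers of fibroblasts (0 of 7), T cells (0 of 6) and erythroid cells (0 of 3) were not detected. The lists of B cells, NK cells, conventional dendritic cells and mast cells each had 1 detected marker, and 0 of the 4 passed in any comparison in limma. Cd79b (B cells) gave -0.33 with 6877002 against vehicle and Prf1 (NK cells) -0.27 with 6860766 against vehicle, each at an unadjusted p under 0.05. Kit (mast cells) was detected on 1 of 3 arrays with 6877002, 3 of 3 with 6860766 and 0 of 3 with vehicle. Ccr7 (dendritic cells) was detected on 3, 1 and 1 arrays, in the same order. Both entered the test through the group where they were highest, so no difference is given for them. The mean level of the mast cell list was 4.40 to 4.43 with 6877002, 4.47 to 4.57 with 6860766 and 4.46 to 4.47 with vehicle. Of the neutrophil markers 6 of 7 were detected and 0 passed in any comparison in limma, nor was any at an unadjusted p under 0.05. Of 5 markers of plasmacytoid dendritic cells, a strong source of interferon, Tcf4 alone was detected, fell with 6860766 (-0.32 ± 0.08, adjusted p = 0.0276), and the list's mean level was 4.95 to 4.99 with 6877002, 4.88 to 4.95 with 6860766 and 4.92 to 4.97 with vehicle. Whether these shifts have a part in those of the effector genes was not tested.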

How the data were processed

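The submitters' processing notes name GenomeStudio 2011.1, R 3.1.3 and limma 3.22.7. Of the deposited tables, 1 gives the authors' bead-summary intensity for each probe and array, without between-array normalisation, beside a detection p-value against negative control beads per the file headers. The second deposited table gives normalised log2 values. They differed by at most 0.016 from background correction (offset 16) and quantile normalisation with limma's neqc run here, and were used as deposited. The filter kept 16415 of 45281 probes, those detected at p under 0.05 on at least 3 arrays, and the probe with the highest mean stood for a gene, giving 11406 features. Probes were named from the platform annotation. R 4.3.3 and limma 3.58.1 fitted 1 coefficient per group on 9 arrays (eBayes with trend, two-sided, Benjamini-Hochberg over all features, threshold 0.05), after tests on simulated data. Nothing says that cultures were separate beyond the mouse numbers, and p-values measure the spread between these arrays, whose number limits the precision. Raw median intensity was 98.7 to 113 and 33.7% to 35.2% of probes per array were detected. The genes, the pathway lists and the markers were chosen with earlier results of these data known. The text names all 39 effector genes, and of the pathway genes and markers mainly those past the threshold, with the others in counts. Alternatives covered background correction, normalisation, filter, probes, variance model, array weights, groups in the fit, slide, mouse number and left-out arrays.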

Additional observations from a re-analysis of the deposited data

How the results depend on the processing

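In 26 alternatives with a test, 0 of the 36 effector genes passed as lower with 6877002 than vehicle, as higher with 6860766 than vehicle or as lower with 6877002 than 6860766. Members passing came to 10 to 18 for 6877002 against vehicle, 15 to 27 for 6860766 against vehicle and 30 to 35 between the compounds when single arrays were left out. The share of all features called in these fits was 1.51% to 5.70%, 1.51% to 4.13% and 2.76% to 9.28%. The median member differences in them were 0.27 to 0.37, -0.43 to -0.32 and 0.64 to 0.76, and pathway genes passing numbered 3 to 11, 6 to 15 and 17 to 24. For the pathway genes, 6877002 against vehicle gave 3 without 6877002 replicate 1, 4 without 6877002 replicate 2 or vehicle replicate 1 and 11 without 6860766 replicate 3, and 6860766 against vehicle gave 7 without 6860766 replicate 1 and 6 without 6860766 replicate 2, vehicle replicate 2 or vehicle replicate 3. Of the calls, 10 of 16, 15 of 25 and 30 of 31 passed whichever array was left out. With arrays scaled to a common median, 9 effector genes and 6 pathway genes passed for 6860766 and 3 pathway genes for 6877002. Over all features that scaling gave 159 higher and 48 lower for 6877002, beside 219 and 122 as reported, and 86 higher and 81 lower for 6860766, beside 124 and 204. Without a trend in the variance 9 effector and 2 pathway genes passed for 6877002 (1.27% of all features called) and 11 and 5 for 6860766 (1.05%). Pathway genes for 6877002 numbered 13 with array weights, 11 (7 for 6860766) with only the groups compared in the fit and 2 with slide as a block. For 6877002 the share of all features called was 5.48%, 5.39% and 2.01% in these settings, and for 6860766 with only the groups compared 2.05%. Without mouse 1, 2 pathway genes passed for 6877002 (1.31% of all features called), and 10 effector and 7 pathway genes for 6860766 (1.14%). Without mouse 2, 8 effector and 3 pathway genes passed for 6877002 (1.11%), 8 and 5 for 6860766 (0.929%) and 13 pathway genes between the compounds (1.69%). Without mouse 3 it was 13 pathway genes for 6877002 (3.35%). Leaving out a mouse number removes 3 of 9 arrays; for the other settings the cause was not tested. The median member difference was 0.24 for 6877002 and 0.57 between the compounds without background correction, 0.18 for 6877002 with slide as a block and 0.79 between the compounds without mouse 3. With the mouse number as a replicate block 14, 24 and 31 effector genes passed, where 2.99%, 2.95% and 4.36% of all features did. Deviations of same-numbered arrays correlated at -0.147 to 0.159, and the numbers were not taken to pair arrays.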
